A study of Mus musculus with 10 samples.

Results

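Cytochrome c oxidase, complex IV of the respiratory chain, has several subunits that exist as a muscle form and a general form, and these isoform pairs were followed in the mouse cochlea, the hearing organ of the inner ear. Members were taken by gene symbol, current or older: Cox6a2 and Cox6a1, Cox7a1 and Cox7a2, Cox8b and Cox8a, Cox4i2 and Cox4i1, and the Cox7a2-related gene Cox7a2l. These 9 genes had 16 probe sets of the 45037 non-control probe sets on the array, and 14 of the 16, from 8 genes, were bright enough to be tested among 22518. The samples were 10 cochlea arrays from male mice aged 9 months, 5 wild type (Polg+/+) and 5 PolgD257A/D257A, called D257A below. The polymerase made from Polg copies mitochondrial DNA. The D257A change removes its proofreading, so that mutations collect in mitochondrial DNA, and it is carried in the germ line, by every tissue and not by the cochlea alone. The labels number the samples 1 to 5 in each group and do not say that each is a separate animal, and the design text says that replicates were not done. The p-values below therefore measure the spread between these arrays, which may be technical.

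Complex IV passes electrons from cytochrome c to oxygen and pumps protons. Its catalytic core is encoded by mitochondrial DNA, and the nuclear subunits around it tune its assembly and activity. Skeletal and heart muscle use the heart-type forms Cox6a2, Cox7a1 and Cox8b, most other tissues use Cox6a1, Cox7a2 and Cox8a, and brown fat also makes Cox7a1 and Cox8b. Cox4i2 is a form of subunit IV found in lung and in oxygen-sensing and vascular cells, where Cox4i1 is the general form. Cox7a2l, also known as SCAFI, joins complex III to complex IV in supercomplexes.

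The promoters of a muscle form are shown here beside that of a general form, since Cox7a1 and Cox8b had like profiles over the arrays and Cox6a1 is the counterpart of the member with the largest difference. RefSeq promoter sequences (GRCm38.p6) matched 6 of the 9 genes: Cox6a1, Cox7a1, Cox7a2, Cox7a2l, Cox8a and Cox8b. The 250 bases before the transcript start are printed for 3 of them in the direction of the gene. Cox7a1 is the window chr7:30183921-30184170 on the plus strand, Cox8b is chr7:140900447-140900696 on the minus strand and Cox6a1 is chr5:115348959-115349208 on the minus strand. Capitals mark an E-box (CANNTG, the core bound by muscle and other bHLH factors) in Cox7a1 and Cox8b, and the NRF1 core (GCGCA and GCGC with any 1 base between them) in Cox6a1.
Cox7a1: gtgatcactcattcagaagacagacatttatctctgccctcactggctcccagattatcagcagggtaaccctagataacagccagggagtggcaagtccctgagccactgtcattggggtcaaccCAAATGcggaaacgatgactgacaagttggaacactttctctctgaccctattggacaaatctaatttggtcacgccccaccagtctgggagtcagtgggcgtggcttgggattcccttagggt
Cox8b: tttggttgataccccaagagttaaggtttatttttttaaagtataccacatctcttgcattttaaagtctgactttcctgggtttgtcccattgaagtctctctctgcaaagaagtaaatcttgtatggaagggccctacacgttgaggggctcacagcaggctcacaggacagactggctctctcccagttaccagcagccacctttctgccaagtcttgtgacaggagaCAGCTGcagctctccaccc
Cox6a1: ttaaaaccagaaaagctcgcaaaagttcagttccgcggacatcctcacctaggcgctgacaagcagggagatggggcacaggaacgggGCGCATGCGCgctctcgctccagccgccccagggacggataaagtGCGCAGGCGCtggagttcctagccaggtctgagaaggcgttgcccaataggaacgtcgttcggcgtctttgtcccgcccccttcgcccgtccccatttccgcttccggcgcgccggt
Each motif was searched on both strands. Cox7a1 had 1 E-box, whose first base lay 124 bases before the start, and Cox8b had 1, at 19 bases. Cox6a1 had no E-box and 2 NRF1 cores, and Cox7a2, Cox7a2l and Cox8a had 1 E-box each and no NRF1 core. No MEF2 site was found in any of the 6 windows. Of 32851 windows of the same length, 66.2% held an E-box, 3.74% the NRF1 core and 2.92% the MEF2 site, so an E-box match is common. The GC content was 51.2% in the Cox7a1 window, 47.2% in Cox8b and 62.8% in Cox6a1. A match is a description of the letters and shows no binding.

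Of the 14 tested member probe sets, 0 passed the test for a difference between the groups (limma, Benjamini-Hochberg adjusted p under 0.05). Over all tested probe sets 513 of 22518, or 2.28%, passed. At the thresholds that the design text names for p and fold change (unadjusted limma p under 0.05, fold over 1.1), 5 of the 14 qualified: both probe sets of Cox6a2, 1 of Cox6a1 and 2 of Cox7a2l. Over all tested probe sets 16.9% qualified. No member probe set had groups that did not overlap, a property of 5.16% of tested probe sets. By sign, 10 of 14 probe sets had a positive log2 fold change, D257A over wild type, and the 3 genes with negative values were the 3 muscle forms. The median over the 8 tested genes was 0.14, beside -0.02 over all 11871 tested genes. Signals below are linear array intensity on the authors' scaling, and fold changes are on the scale of log2(signal + 16). A level on a probe set depends on its probes, so levels were compared between arrays and not between genes.

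**Figure D1:**
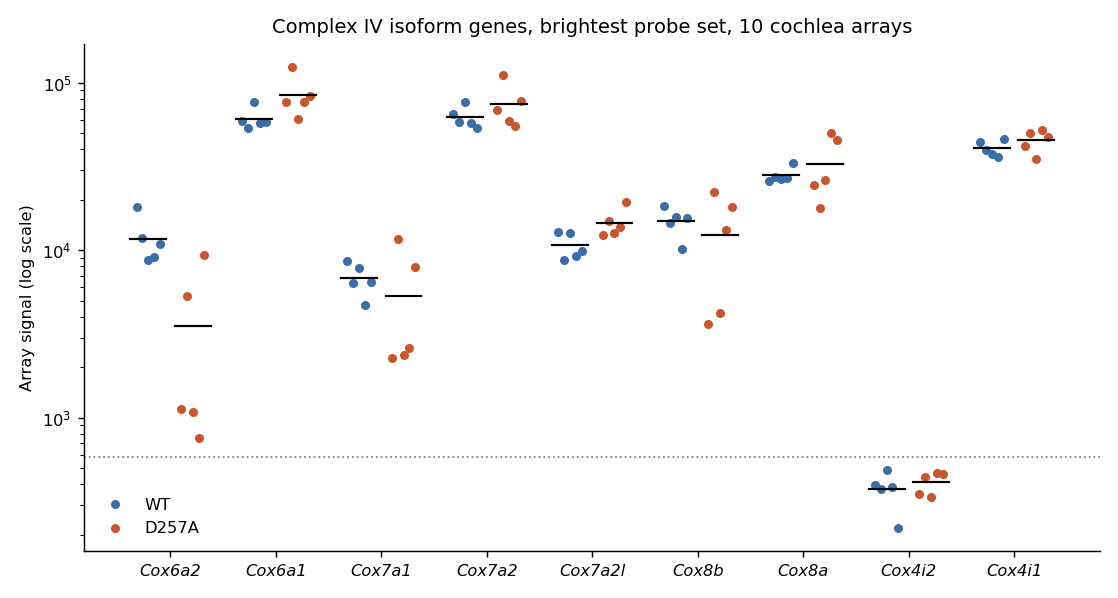
Array signal (log scale) of the brightest probe set of each gene on the 5 wild-type (blue) and 5 D257A (orange) arrays; black bars are group means and the dotted line is the lower edge of tested probe sets, 577.4. Cox6a2 ranged from 8695.8 to 18053.6 in wild type and from 754.2 to 9408.9 in D257A. The groups overlapped for every gene shown, Cox6a2 included, and heights of different genes are not comparable.

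Among the muscle forms, Cox6a2 (chr7:128205435-128206366) had the largest difference of the 9 genes. It encodes the muscle form of subunit VIa, which adjusts the activity of complex IV to the energy state of the cell. Its brighter probe set, 1417607_at, had signals of 18053.6, 11862.2, 8695.8, 9113.6 and 10943.6 on wild-type arrays 1 to 5 and 1130.5, 5334.5, 1073.2, 754.2 and 9408.9 on D257A arrays 1 to 5. D257A arrays 1, 3 and 4 lay far below every wild-type array, array 2 lay between, and array 5 lay inside the wild-type range, so the groups overlapped. The means were 11730 ± 3764 and 3540 ± 3785 (SD, n = 5 each), the log2 fold change was -2.38 (SE 0.60) and the limma adjusted p was 0.0594. D257A was the lower array in 23 of the 25 wild-type and D257A pairs.

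The other Cox6a2 probe set, 1457633_x_at, carries the suffix that the maker gives to probe sets that may cross-hybridise. Its signals were 4635.3, 2189.1, 1927.8, 1256.6 and 1626.5 in wild type and 93.5, 1811.0, 92.7, 88.6 and 1340.5 in D257A. The same 3 D257A arrays were low, and arrays 2 and 5 lay within the wild-type range. This probe set passed the filter on dim probe sets through its wild-type arrays: the D257A log2 mean, 8.30, lay below the tested edge of 577.4. Its log2 fold change of -2.74 (SE 0.81, limma adjusted p = 0.101) is therefore a description that depends on the pseudocount, -2.87 with 1 and -2.44 with 64, and it is no support for the first probe set. For 1417607_at, leaving out 1 array moved the call: the limma adjusted p was 0.0365 without D257A replicate 2 and 0.0133 without D257A replicate 5. It was 0.00452 with arrays weighted by their quality and 0.0467 with each array centred on its median. Over its 20 alternatives the adjusted p of 1417607_at ran from 0.00452 to 0.145.

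Cox7a1 (chr7:30184171-30186030), the muscle form of subunit VIIa, was low on the same D257A arrays as Cox6a2 but differed from it on array 2. Over the 10 arrays its Pearson correlation was 0.845 with Cox6a2 and 0.87 with Cox8b (Spearman 0.552 and 0.988). Its single probe set, 1418709_at, gave 8634.7, 6385.2, 7861.1, 4702.8 and 6488.8 in wild type and 2270.7, 11642.8, 2351.0, 2612.7 and 7893.5 in D257A. Arrays 1, 3 and 4 of D257A were below every wild-type array, but array 2 was the highest of all 10 and array 5 lay in the upper part of the wild-type range. Means were 6815 ± 1513 and 5354 ± 4244 (SD, n = 5 each), with a log2 fold change of -0.67 (SE 0.43, limma adjusted p = 0.458) that was -1.04 without D257A replicate 2.

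Cox8b (chr7:140898942-140900446), the muscle form of the small subunit VIII, gave 18255.2, 14577.1, 15705.4, 10149.1 and 15606.4 in wild type and 3634.3, 22214.6, 4209.2, 13148.4 and 18043.2 in D257A. Only D257A arrays 1 and 3 lay below the wild-type range. Array 4, low for Cox6a2 and Cox7a1, was within it, and array 2 was again the highest of all. The log2 fold change was -0.61 (SE 0.46, limma adjusted p = 0.541), with means of 14860 ± 2961 and 12250 ± 8254 (SD, n = 5 each). It was -0.26 without D257A replicate 1, -0.31 without D257A replicate 3 and -1.001 with array weights, with no call.

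The general forms gave no call and mostly positive values, some of which moved close to 0 under other settings. Cox6a1 (chr5:115345652-115348958), the general form of subunit VIa, gave 59142.5, 53720, 76561, 57142.4 and 57922.6 on probe set 1417417_a_at in wild type and 76342.4, 124230.4, 60965.8, 77249.9 and 83182.6 in D257A. All D257A arrays but array 3 were at or near the top of the wild-type range or above it, and D257A was higher in 23 of 25 pairs. The log2 fold change was 0.44 (SE 0.18, limma adjusted p = 0.241), and it was 0.29 without D257A replicate 2 and 0.27 after quantile normalization. The other probe set, 1417418_s_at, gave 24166.8 to 28719.8 in wild type and 26998.1, 21457.4, 29719, 45504.1 and 49643 in D257A, a log2 fold change of 0.33 (adjusted p = 0.471) that was 0.21 without D257A replicate 4 and 0.18 without D257A replicate 5. The probe sets differed by array, with a correlation of 0.101 over 10 arrays: D257A replicate 2 was the highest array on 1417417_a_at and the lowest on 1417418_s_at.

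Cox7a2 (chr9:79755241-79771422), the general form of subunit VIIa, gave 65048.4, 58205.1, 76301.7, 57294.6 and 53751.2 on 1416970_a_at in wild type and 68331.3, 111843.3, 59250.2, 54840.8 and 77490.4 in D257A. D257A replicate 2 stood above all others, replicate 5 was just above the wild-type range and the other 3 lay within it. The log2 fold change was 0.22 (SE 0.19, limma adjusted p = 0.596), and the second probe set, 1416971_at, gave 0.25 (adjusted p = 0.517). Without D257A replicate 2 these were 0.06 and 0.10, and the first was 0.04 after quantile normalization and 0.12 after median centring.

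Cox8a (chr19:7215158-7217616), the general form of subunit VIII, gave 25994.5, 27484.1, 26670.4, 26865.9 and 33268.1 on 1448222_x_at in wild type and 24518.4, 17854, 26122.3, 50455.8 and 45584.2 in D257A. D257A arrays 4 and 5 were above the wild-type range, and arrays 1 and 2 were below it, with array 2 the lowest of all. Its log2 fold change of 0.13 (limma adjusted p = 0.851) changed sign without D257A replicate 4, at -0.06, and without D257A replicate 5, at -0.02. It was 0.32 without D257A replicate 2 and 0.03 after median centring. The probe set 1416112_at gave 0.12 (adjusted p = 0.870). The third, 1436409_at, was too dim to be tested, at 28.5 to 234.1 in wild type and 56.6 to 284.3 in D257A.

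Cox4i1 (chr8:120668225-120674209), the general form of subunit IV, gave 44356.8, 39591, 37379.2, 35810.1 and 46179.1 in wild type and 42165.1, 50112.7, 34945.3, 52267.5 and 47474.3 in D257A on 1448322_a_at. The ranges overlapped, with a log2 fold change of 0.15 (SE 0.15, limma adjusted p = 0.646). It was 0.0070 after quantile normalization, 0.05 after median centring, 0.07 with array weights, 0.24 without D257A replicate 3 and 0.0965 without D257A replicate 4. Its counterpart Cox4i2 (chr2:152753916-152765039) lay below the tested range on its single probe set, 1421373_at, with 397.2, 373.9, 487.3, 385 and 219.3 in wild type and 347.7, 443, 335.4, 463.3 and 461.8 in D257A. In the fit without a filter on dim probe sets its log2 fold change was 0.16 (adjusted p = 0.817). Hypoxia raises Cox4i2 in other tissues. Of 10 measured hypoxia-induced genes 0 passed limma's adjusted p and 2 had an unadjusted p under 0.05, beside 2.32% and 16.7% of all genes. Their median log2 fold change was -0.04 beside -0.02 over all genes, and the brightest were Ldha (-0.62), Slc2a1 (0.56), Bnip3 (-0.07) and Hk2 (-0.54).

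Cox7a2l (chr17:83501917-83514333) had 3 tested probe sets. The brightest, 1421772_a_at, gave 12924.9, 8679.3, 12712.3, 9252 and 9864.3 in wild type and 12269.3, 14933.1, 12628.6, 13702.2 and 19313.2 in D257A. D257A was the higher array in 21 of 25 pairs, with arrays 2, 4 and 5 above the wild-type range. The log2 fold change was 0.45 (SE 0.18, limma adjusted p = 0.216), beside 0.38 on 1432263_a_at (adjusted p = 0.257) and 0.19 on 1432264_x_at (adjusted p = 0.789). The last was 0.44 without D257A replicate 2 and 0.0066 without D257A replicate 5.

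Each muscle form was next set against its general form within the same array, where a scaling factor common to the array cancels. For this, 8 within-array differences were tested by two-sided exact permutation over the arrays, whose smallest possible p is 0.00794, and their p-values are not adjusted. Only the change of a difference between groups is read, since its level depends on both probe sets. Cox6a2 minus Cox6a1 was -1.71, -2.18, -3.14, -2.65 and -2.40 on wild-type arrays 1 to 5 and -6.06, -4.54, -5.81, -6.65 and -3.14 on D257A arrays 1 to 5. Every D257A array was below every wild-type array, although D257A replicate 5, at -3.142, was barely below wild-type replicate 3, at -3.136. The mean was -2.42 ± 0.53 and -5.24 ± 1.40 (SD, n = 5 each) in that order, a change of -2.82 (SE 0.67, exact permutation p = 0.00794, the smallest possible), or a ratio 7.08-fold lower. The exact p was at most 0.0286 over its 15 alternatives. Alone, the log2 fold changes were -2.38 for Cox6a2 and 0.44 for Cox6a1, and neither was called. The change thus largely restates the fall of Cox6a2. How often other gene pairs separate in this way was not counted.

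Cox7a1 minus Cox7a2 changed by -0.89 (SE 0.36, exact permutation p = 0.0556), and D257A was lower in 22 of 25 array pairs. D257A arrays 1, 3 and 4, at -4.90, -4.65 and -4.38, lay below the wild-type range of -3.60 to -2.91, while arrays 2 and 5, at -3.26 and -3.29, lay within it. Without D257A replicate 2 the exact permutation p was 0.0159 and without D257A replicate 5 it was 0.0238, while it was 0.103 without wild-type replicate 1 and 0.143 after quantile normalization, where the change was -0.69. Over its 15 alternatives the exact p ran from 0.0159 to 0.143. Cox8b minus Cox8a changed by -0.73 (SE 0.58, exact permutation p = 0.246). D257A replicate 2, at 0.32, was above the wild-type range of -1.40 to -0.51 and arrays 1, 3 and 4, at -2.75, -2.63 and -1.94, were below it. Without D257A replicate 2 the change was -1.23 (exact permutation p = 0.0159), and without D257A replicate 1 it was -0.46 (exact permutation p = 0.468). Cox4i2 minus Cox4i1 changed by 0.01 (SE 0.24, exact permutation p = 0.952), and this sign turned under other settings. Cox7a2l minus Cox7a2 changed by 0.22 (SE 0.18, exact permutation p = 0.254), but after quantile normalization it was 0.40 (exact permutation p = 0.00794) and without D257A replicate 2 it was 0.37 (exact permutation p = 0.0397). It was 0.10 (exact permutation p = 0.786) with all probe sets of each gene averaged and 0.14 without D257A replicate 4 or 5 (exact permutation p = 0.468 in both).

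**Figure D2:**
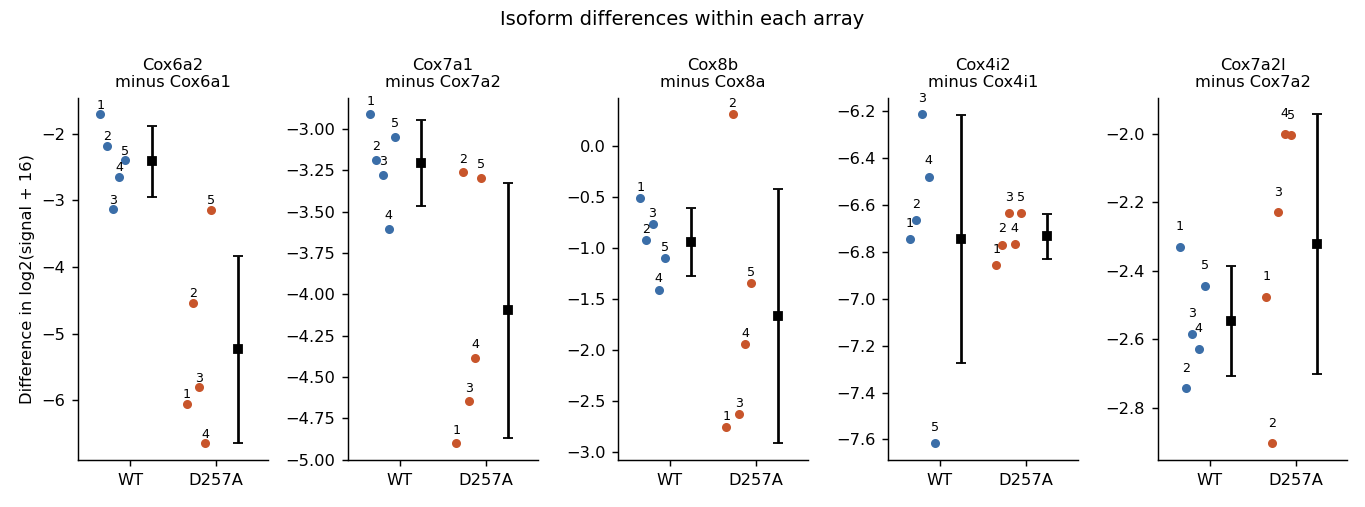
Difference in log2(signal + 16) between the members of each pair on every wild-type (blue) and D257A (orange) array, numbered by replicate; squares and bars are means ± SD, and each panel has its own axis. Cox6a2 minus Cox6a1 was below every wild-type array in all 5 D257A arrays, and the other 4 panels overlap.

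Markers of skeletal muscle were mostly lower in D257A. The list of skeletal muscle sarcomere genes, the proteins of the contractile apparatus, had 22 of 27 members measured. All 22 had negative log2 fold changes, 11 of them passed the test, and the median was -2.52, beside 52.9% negative, 2.32% called and a median of -0.02 over all genes. Of those called, Myh2 (18.0 to 486.4 in D257A) and Myl2 (157.0 to 468.5) lay below the tested edge of 577.4 on every D257A array. They passed the filter through wild type, so their falls are a description. The members too dim to be tested were not all negative. In the fit without a filter they were Myl3 (0.37), Tnnc1 (0.07), Tnni1 (0.04), Tnnt1 (-0.60) and Myh7 (-0.83). The summed signal of the 22 genes was 214400 to 590800 in wild type and 18470 to 252200 in D257A. Fast fibre genes were bright: Myl1, a myosin light chain, was 32000 ± 10060 on wild-type arrays and 4406 ± 4346 on D257A arrays (SD, n = 5 each; limma adjusted p = 0.0148), and Tnnc2, fast troponin C, was 50150 ± 14070 and 7998 ± 7842 (adjusted p = 0.0266). Acta1, skeletal actin, had a log2 fold change of -2.79 (adjusted p = 0.0716) and Myh1, a fast myosin heavy chain, one of -3.17 (adjusted p = 0.0696). In bulk tissue fewer muscle fibres and less RNA per fibre cannot be told apart, and the part of muscle content in the isoform results was not tested.

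The mean log2 signal of the 22 sarcomere genes was 14.16, 13.62, 12.49, 13.41 and 13.84 on wild-type arrays 1 to 5 and 10.16, 11.85, 10.33, 9.02 and 12.44 on D257A arrays 1 to 5. D257A arrays 1, 3 and 4 were lowest, as for Cox6a2. Cox6a2 minus this mean changed by 0.36 (SE 0.26, exact permutation p = 0.19), and the change was -0.04 (exact permutation p = 0.937) when all probe sets of each gene were averaged. Cox7a1 minus the sarcomere mean changed by 2.08 (SE 0.45, exact permutation p = 0.00794), with wild-type arrays at -1.21 to 0.46 and D257A arrays at 0.51 to 2.34. Cox8b minus the sarcomere mean changed by 2.14 (SE 0.64, exact permutation p = 0.00794), with wild-type arrays at -0.10 to 1.45 and D257A arrays at 1.68 to 4.67. Relative to the sarcomere genes, then, Cox7a1 and Cox8b were higher on all D257A arrays than on all wild-type arrays, and these exact p-values were at most 0.0286 in every alternative run. The 22 genes include Myh2 and Myl2, which passed the filter through wild type and lower the mean on D257A arrays. A mean without them was not tested. The sarcomere mean itself changed by -2.75 and separated the groups, with 12.44 the highest D257A array and 12.49 the lowest wild-type array. Cox7a1 (-0.67) and Cox8b (-0.61) fell less and were not called. These differences thus largely restate the sarcomere fall and show no rise of either gene. A difference between Cox6a2 and the other muscle forms was not itself tested.

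**Figure D3:**
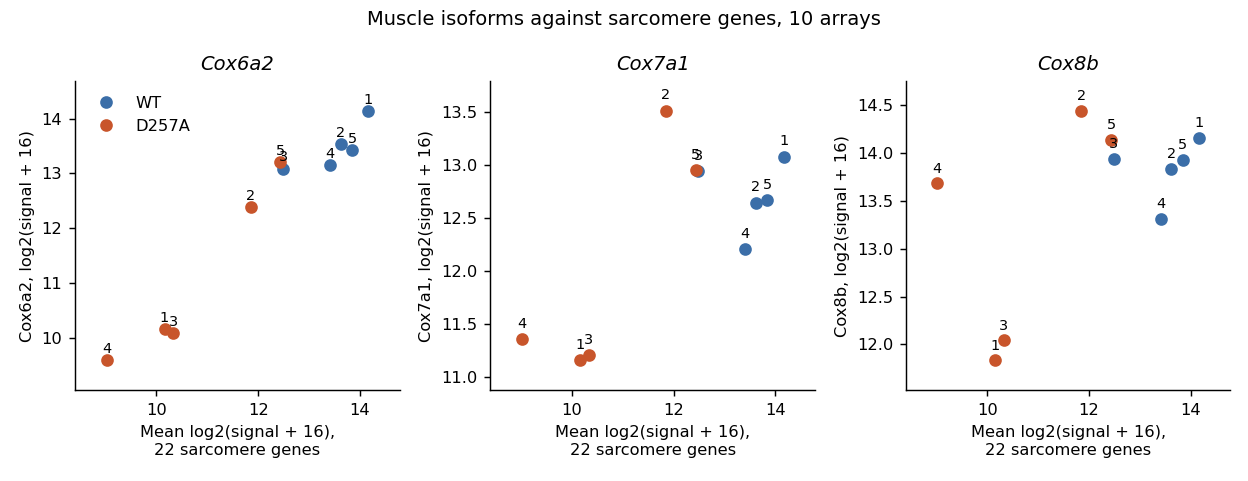
Log2(signal + 16) of Cox6a2, Cox7a1 and Cox8b against the mean of 22 sarcomere genes on each wild-type (blue) and D257A (orange) array, numbered by replicate. Cox6a2 lies along 1 rising band, whereas Cox7a1 and Cox8b on D257A replicate 2 are above all wild-type arrays although its sarcomere mean, 11.85, is below all of theirs.

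The other muscle list, energy and calcium handling, had 14 members measured, 12 of them negative, and 5 fell: Ckmt2, Mb, Pgam2, Eno3 and Casq1, named after their values were seen. Pgam2 had a D257A median of 343.6, below the tested edge of 577.4, so its fall is a description. The list median was -2.33. Over all tested genes 52.9% were negative, 2.32% passed the test and the median was -0.02. Of its brightest members, Slc25a4, an ADP/ATP carrier, had a log2 fold change of -0.07 (limma adjusted p = 0.870), Pvalb, a calcium buffer, -0.90 (0.0594), Atp2a1, the fast-fibre calcium pump, -2.94 (0.0552), and Ckm, muscle creatine kinase, -2.49 (0.174). Of the 10 heart muscle genes 4 were measured, and Actc1, cardiac actin, fell by 3.08 on the log2 scale (adjusted p = 0.000179). The D257A signals of Actc1, 333.3 to 523.6, all lay below the tested edge of 577.4. It passed the filter through wild type, so its fall is a description. Ryr2 (-0.17), Mybpc3 (0.33) and Myl4 (-0.01) gave adjusted p-values of 0.735, 0.427 and 0.992. Myh6, the main myosin heavy chain of the mouse heart, and Myl7, an atrial light chain, were below the tested range.

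Fat markers were also present and differed between D257A arrays. The mean log2 signal of 9 measured brown fat genes was 11.70, 12.27, 11.65, 11.68 and 12.40 on D257A arrays 1 to 5 and 11.71 to 11.78 in wild type. It was highest on D257A arrays 2 and 5, where the sarcomere mean and Cox7a1 were also the highest of their group. The summed brown fat signal was 42680 to 58140 in wild type and 37370 to 76920 in D257A. Zic1 alone ran from 3431.0 to 24953.3 within wild type, so this sum depends much on 1 gene. Fabp3, also in the sum, is on the muscle energy list too. The sum is therefore no measure of brown fat content. Ucp1, which uncouples respiration in brown fat, was 4020 to 4971 in wild type and 4068, 12866, 3777, 9996 and 24704 on D257A arrays 1 to 5. It was high on arrays 2, 4 and 5. On these 3 arrays Cox8b was inside or above its wild-type range, but Cox7a1 was low on array 4, at 2612.7. The log2 fold change of Ucp1 was 0.96 (limma adjusted p = 0.275). Of the 9 brown fat genes 6 were positive and 1, Cidea, a lipid droplet protein, fell by 1.39 on the log2 scale (adjusted p = 0.00444). Over all tested genes 52.9% were negative and 2.32% passed the test. Zic1 (-0.11) and Fabp3 (0.34), the brightest of the list, had adjusted p-values of 0.927 and 0.648.

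Fabp4, a fatty acid carrier of all adipocytes, was 30189.4 to 67374.6 in wild type and 15443.2, 81454.1, 15899.9, 26387.9 and 58556.9 on D257A arrays 1 to 5. D257A arrays 1, 3 and 4 lay below the wild-type range and array 2 was the highest of all, as for Cox7a1. As a description over the 10 arrays, which share their 2 groups, the Pearson correlation of Fabp4 was 0.902 with Cox7a1 and 0.866 with Cox8b (Spearman 0.891 and 0.879), and that of Ucp1 was 0.357 and 0.502 (0.673 and 0.721). Within D257A both were high: 0.976 and 0.939 for Fabp4, and 0.791 and 0.918 for Ucp1. Within wild type they were lower: 0.537 and 0.347 for Fabp4, and 0.576 and 0.395 for Ucp1. High values were not particular to Cox7a1 and Cox8b. Within D257A, Fabp4 had 0.856 with Cox6a2, 0.85 with Cox6a1 and 0.804 with Cox7a2, but -0.066 with Cox8a. Over the 10 arrays Ucp1 had 0.814 with Cox7a2l, and the sarcomere mean had 0.729 with Cox7a1 and 0.547 with Cox8b. Of 7 measured genes of white and general fat all were negative, beside 52.9% of all genes, with a list median of -0.49 beside -0.02. The test was passed by 2.32% of all genes. Adipoq (-1.599) and Scd1 (-1.25) fell (limma adjusted p = 0.00498 and 0.0103), while Fabp4 (-0.31) and Pnpla2 (-0.49) had adjusted p-values of 0.772 and 0.499. The summed signal of the list was 89600 to 136000 in wild type and 43570 to 112800 in D257A. The part of fat content in the Cox7a1 and Cox8b values was not tested.

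**Figure D4:**
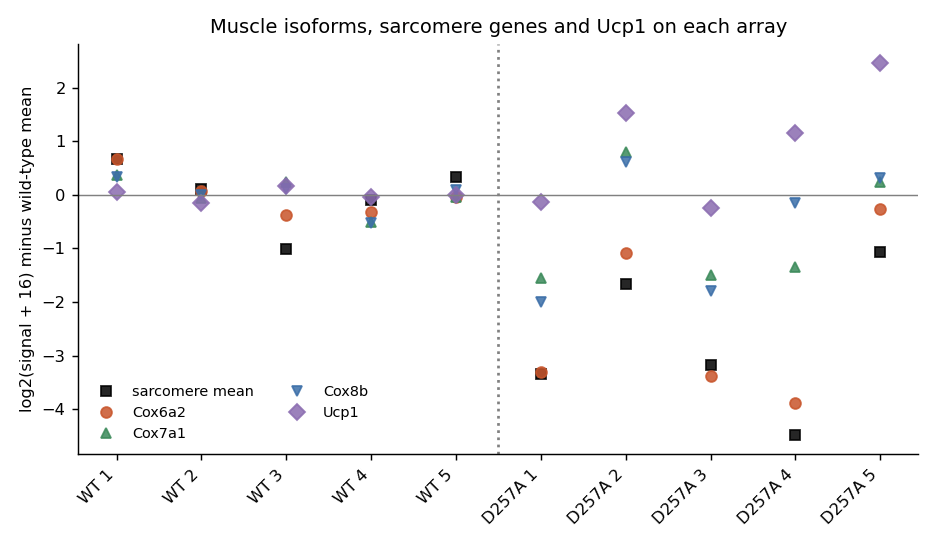
Log2(signal + 16) minus the wild-type mean for the sarcomere mean, Cox6a2, Cox7a1, Cox8b and Ucp1 on each array. On D257A replicates 1 and 3 all 3 muscle forms are low and Ucp1 is near the wild-type mean, and on replicates 2 and 5 Cox7a1 and Cox8b are above the wild-type mean and Ucp1 is high. On replicate 4 Ucp1 is high while Cox7a1, at -1.35, is low and Cox8b, at -0.15, is near the wild-type mean.

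Pericytes and vascular smooth muscle, cells in which Cox4i2 is known, were measured with 10 genes. Of these 8 were negative and 2, Anpep and Tagln, fell, with a median of -0.50, beside 52.9% negative, 2.32% called and a median of -0.02 over all genes. Anpep had a D257A median of 552.4, below the tested edge of 577.4, so its fall is a description. The brightest, Acta2 and Rgs5, had log2 fold changes of -0.65 (limma adjusted p = 0.0970) and -0.34 (0.451) on their brightest probe sets. The tested probe sets of Rgs5 differed in sign. A dimmer probe set passed the test as higher in D257A, at 1.81 (limma adjusted p = 0.00977). The others gave -0.80 (limma adjusted p = 0.0841) and -1.33 (0.427), so the direction of Rgs5 is open. The cochlear list checked the tissue label: Coch, the main protein of the cochlear matrix, gave 57563 to 83744 over all 10 arrays, and 12 of 16 markers were measured. The outer hair cell motor Slc26a5, the hair cell factor Pou4f3 and Oc90 were below the tested range. Otos (-0.26), Gjb6 (0.10) and Gjb2 (-0.27), the next brightest, had limma adjusted p-values of 0.547, 0.799 and 0.428. None of the 12 measured markers passed limma's adjusted p and 2 had an unadjusted p under 0.05, beside 2.32% and 16.7% of all genes. The median of the 12 was -0.12. The summed cochlear signal was 179000 to 252800 in wild type and 160000 to 242700 in D257A.

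Over the 10 arrays, the genes most like each member in log2 signal were taken as those with the highest Pearson correlation of 11870 other genes, as a description that includes the difference between groups. Cox6a2 was nearest to Acta1 (0.979), Mb (0.979) and Myot (0.977). Cox7a1 was nearest to Acaca (0.948), Urah (0.941) and Ybx3 (0.941). Cox8b was nearest to Igfbp7 (0.964), 1700037H04Rik (0.941) and Acaca (0.930). Acaca, acetyl-CoA carboxylase of fatty acid synthesis, was near both Cox7a1 and Cox8b, while Acta1, Mb and Myot are genes of striated muscle. Cox7a2l was nearest to Pmepa1 (0.965), Stmn3 (0.934) and Slc19a1 (0.927), and the dim Cox4i2 to Tkfc (0.946), 2700046G09Rik (0.915) and Cog8 (0.898).

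The other nuclear subunits of complex IV were mostly positive, as the general forms were, and none passed the test. Of 11 on the list 9 were measured and 8 had positive log2 fold changes, with a median of 0.27 beside -0.02 over all genes, of which 52.9% were negative. By limma's adjusted p 0 passed and 2 had an unadjusted p under 0.05, beside 2.32% and 16.7% of all genes. Those with the smallest p were Cox7c (0.59, limma adjusted p = 0.250), Cox5a (0.44, 0.274), Cox6c (0.30, 0.369) and Cox8c (0.37, 0.475), structural subunits of the complex. Cox5a, for example, had wild-type signals of 43400 ± 11100 and D257A signals of 58720 ± 13510 (SD, n = 5 each). Ndufa4 alone was negative, at -0.25 (adjusted p = 0.546).

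**Figure D5:**
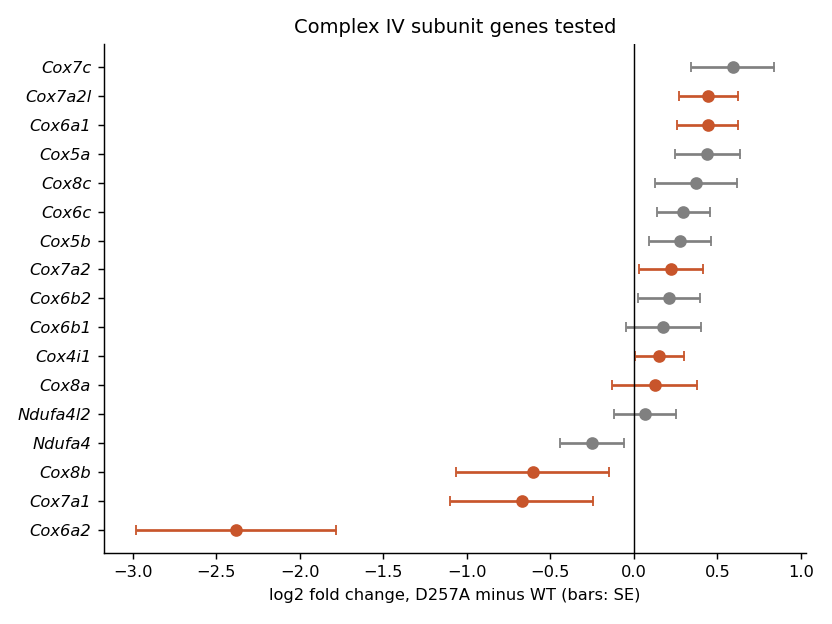
Log2 fold change, D257A over wild type, of the 17 tested complex IV subunit genes (brightest probe set; bars are the SE of the limma fit); orange marks the isoform genes and grey the other subunits. The 3 muscle forms and Ndufa4 are negative and the other 13 are positive, and none passed the adjusted threshold.

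Assembly factors of complex IV, which insert its copper and heme groups and join its subunits, were measured for 22 of 27 listed genes. None passed by limma's adjusted p and 3 had an unadjusted p under 0.05, beside 2.32% and 16.7% of all genes. Of the 22, 16 were positive and the median was 0.06, while 52.9% of all genes were negative. The smallest p-values belonged to Lrpprc, which stabilises mitochondrial messenger RNAs, at -0.49 (limma adjusted p = 0.197), Sco2, a copper chaperone, at -0.57 (0.203), Timm21, at -0.42 (0.245), and Cmc2, at 0.43 (0.365). The core subunits encoded by mitochondrial DNA were not analysed here.

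The trimmed mean signal was alike on all arrays, and correlations between arrays ran from 0.854 to 0.951. Wild-type replicate 3 and D257A replicate 2 stood furthest from their groups, with mean correlations of 0.914 and 0.89. Without both, 2 member probe sets passed the test, those of Cox6a2, with a limma adjusted p of 0.0324 for 1417607_at; the other had passed the filter through wild type.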

How the data were processed

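Cochlear RNA was amplified, labelled with biotin and read on Affymetrix mouse arrays (45101 probe sets), per the labels' protocols. The authors deposited 1 intensity per probe set and array, on a linear scale. The submitters' processing notes name GCOS 1.3. How background was corrected and probes were summarised is not given in the sources used here. The authors' scaling was kept. No batch was tested, since scan dates were not used here, nor were detection calls. The number of arrays limits the precision. Control probe sets filled on 1 array only (64) were left out.

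Genes were named from the platform table and placed with RefSeq (GRCm38.p6); a gene stands for its brightest probe set. Values were tested as log2(signal + 16) with limma 3.58.1 in R 4.3.3 (group as the only term, intensity trend) on the fraction 0.5 of probe sets with the highest mean log2 signal (22518), with Benjamini-Hochberg adjustment over all of them at 0.05. Within-array differences were tested by exact permutation in Python 3.11.15. Spearman correlations used SciPy 1.17.1. The fit was tested on simulated data. Members, lists and tests were chosen with earlier results of these data known. Named genes were all members, the 4 smallest p-values of the complex IV lists, up to 4 of the brightest of other lists, and the 3 most correlated genes. Genes that passed the test in other lists were named after their values were seen. Alternatives were other pseudocounts, scalings, filters, weights, thresholds, a replicate block, averaged probe sets and arrays left out; leaving out both arrays that stand apart was added after seeing the data.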

Additional observations from a re-analysis of the deposited data

Results flagged for a closer look

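Among 48 groups of 5 arrays checked for a single array far from the others, 5 had one, and chance gives about 1 in 20. Cox6a1 on 1417417_a_at was highest on wild-type replicate 3, at a log2 signal of 16.22. Cox8a was highest in wild type on replicate 5, at 15.02 on 1448222_x_at and 14.94 on 1416112_at. Relative to the sarcomere mean, wild-type replicate 3 stood above the other wild-type arrays for Cox7a1, at 0.46, and for Cox8b, at 1.45, and its sarcomere mean of 12.49 was the lowest of its group.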

How the results depend on the processing

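With the deposited scaling, 0 member probe sets were called; 1 was called after median centring, 2 with array weights, 2 without both arrays that stand apart, 5 by unadjusted p and fold change, and 0 to 2 when 1 array was left out. The replicate block gave 0 calls (188 over all probe sets), with a limma adjusted p of 0.0792 for Cox6a2 on 1417607_at. Deviations of same-numbered arrays had correlations of -0.337 to 0.183. Whether same-numbered arrays shared a batch was not tested. Leaving out 1 array gave a log2 fold change of -0.0563 to 0.318 for Cox8a on 1448222_x_at and -0.0770 to 0.318 on 1416112_at, a change of -0.21 to 0.14 in Cox4i2 minus Cox4i1, -1.10 to -0.69 in Cox7a1 minus Cox7a2, -1.23 to -0.46 in Cox8b minus Cox8a, and 0.14 to 0.37 in Cox7a2l minus Cox7a2. Cox4i2 minus Cox4i1 changed by -0.0095 with a pseudocount of 64 and by -0.0186 after quantile normalization, which put Cox7a2l minus Cox7a2 at 0.40. Cox6a2 minus the sarcomere mean was -0.0443 over all probe sets of each gene. The cause of these changes was not tested. Over all probe sets the 513 calls (233 higher, 280 lower) became 1217 with array weights, 653 after median centring (174 higher, 479 lower, with the median of all probe sets moved to -0.10), 322 among the brightest 30%, and 168 to 574 when 1 array was left out. Cox6a2 minus Cox6a1 and Cox7a1 and Cox8b minus the sarcomere mean kept their direction and their side of the threshold in all 15 alternatives run for each. For Cox7a1 and Cox8b this largely restates the fall of the sarcomere mean, which includes Myh2 and Myl2, genes that passed the filter through wild type. For Cox6a2 minus Cox6a1 it largely restates the fall of Cox6a2. Signals near the bottom of the scale, as for Cox4i2, limit what a difference can show.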
